A study of Homo sapiens with 9 samples.

Results

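The MYC and MAX network is a family of transcription factors that share the dimerisation partner MAX. Its members here were the 10 genes MYC, MYCN, MYCL, MAX, MXD1, MXD3, MXD4, MXI1, MNT and MLX. They were taken by gene symbol from a table of 60612 genes, and all 10 were found there. Of these, 9 reached 1 FPKM (a unit that divides the sequenced fragments of a gene by its transcript length and the depth of the library) in at least 3 libraries and were tested, as were 12830 genes in all. MYCN stayed below that level in every library and was not tested.

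The cells were VCaP, an established line from a metastatic prostate cancer, in which the TMPRSS2-ERG fusion joins an androgen-driven promoter to ERG. Cells transfected for 4 days with a control siRNA (KMT2C normal) were compared with cells given siRNA 1 or siRNA 2 against KMT2C (KMT2C deficiency). KMT2C encodes an enzyme that methylates histone H3 at enhancers. Each group had 3 libraries, and whether these were separate cultures is not stated, so p-values measure only the spread between these libraries, which may be technical.

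MYC, MYCN and MYCL each pair with MAX and bind the E-box CACGTG, and MYC is best known for raising genes of ribosome production, nucleotide synthesis and growth. MXD1, MXI1, MXD3, MXD4 and MNT pair with MAX at the same sites but recruit the SIN3 and histone deacetylase corepressor, so they oppose MYC. MLX is related to MAX and pairs with the glucose-sensing factors MLXIP (MondoA) and MLXIPL (ChREBP), and also with MXD1, MXD4 and MNT.

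Library totals were 58462215 to 70726213 counts, and 24406 to 25318 genes had counts. The targeted gene KMT2C went from 12.1 to 13.7 FPKM in control to 1.54 to 2.28 under siRNA 1 and 1.64 to 1.73 under siRNA 2. It fell by 2.81 ± 0.13 (SE) on the log2 scale with siRNA 1 and by 2.98 ± 0.13 with siRNA 2. All 9 VCaP markers (among them ERG, KLK3, KLK2, TMPRSS2, HOXB13, FOXA1 and FOLH1) were detected, and their summed level was 1760 to 1854 FPKM in control, 915 to 942 with siRNA 1 and 950 to 969 with siRNA 2. Of them, 7 fell with siRNA 1, and 8 fell and 1 rose with siRNA 2 (20.5% and 24.9% of all tested genes fell). Of 16 markers of other cell types only KRT14, ACTA2 and ALB reached the tested level. The sum of the 16 was 7.32 to 9.83, 11.2 to 13.3 and 4.74 to 7.82 FPKM in the 3 groups, and the T cell gene CD3E was listed at 0 in all 9 libraries. In bulk RNA fewer cells of a type and less RNA per cell cannot be told apart. The part of these marker shifts in the results below was not tested.

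Among the network genes the MYC antagonist gene MNT rose with both siRNAs, its relative MXD4 rose with siRNA 2, and MYC itself did not pass the test. With siRNA 1, MNT and MYCL rose and MLX fell, which is 3 of 9 tested network genes, while 41.7% of all tested genes were called in that comparison (21.2% higher and 20.5% lower). With siRNA 2, MNT, MXD4 and MYCL rose and MLX fell, 4 of 9, against 49.3% of all tested genes (24.4% higher and 24.9% lower). The shares called lie near those of the whole transcriptome. The median log2 fold change of the 9 genes was 0.07 with siRNA 1 and 0.43 with siRNA 2, beside 0.01 and 0.02 over all tested genes. Of the 9, 5 were positive with each siRNA, as were 6545 and 6635 of all 12830 tested genes. The siRNA 2 median is the value of MYCL. Both comparisons use the same 3 control libraries. MNT, MYCL and MLX were called in 1 direction with both siRNAs, as were 25.9% of all tested genes (13.2% higher and 12.6% lower).

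**Figure D1:**
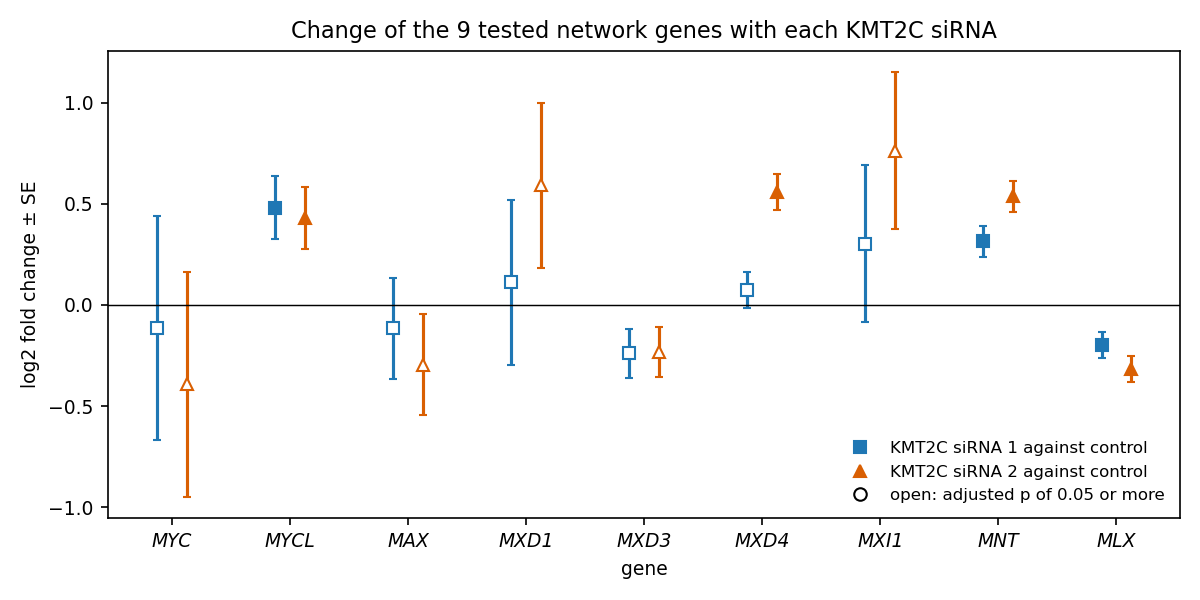
Log2 fold change against control (vertical axis) of the 9 tested network genes with siRNA 1 (squares) and siRNA 2 (triangles), with bars of 1 SE; filled symbols have an adjusted p under 0.05. MNT sits above 0 with both siRNAs (0.31 and 0.54), MXD4 with siRNA 2 (0.56), and the widest bars belong to MYC (SE 0.56).

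Levels per gene length spanned a wide range. In control cells MLX was highest at 13.8 ± 0.407 FPKM (SD, n = 3), followed by MYC (8.74 ± 8.56), MXD3 (7.79 ± 0.506), MAX (6.54 ± 1.54), MXD4 (5.33 ± 0.468) and MNT (4.65 ± 0.204). MXI1 (2.13 ± 0.649), MXD1 (2.02 ± 0.734) and MYCL (1.09 ± 0.182) were lower, and MYCN was at 0.0282 ± 0.0287. Neighbours in this order from MYC to MXD4 overlapped in their control libraries, as did MXI1 with MXD1 and MXD1 with MYCL. The MNT libraries (4.44 to 4.85) lay just under those of MXD4 (4.86 to 5.80). MLX (13.3 to 14.1) was above every other network gene except the single high MYC value, and MYCN was below all of them.

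**Figure D2:**
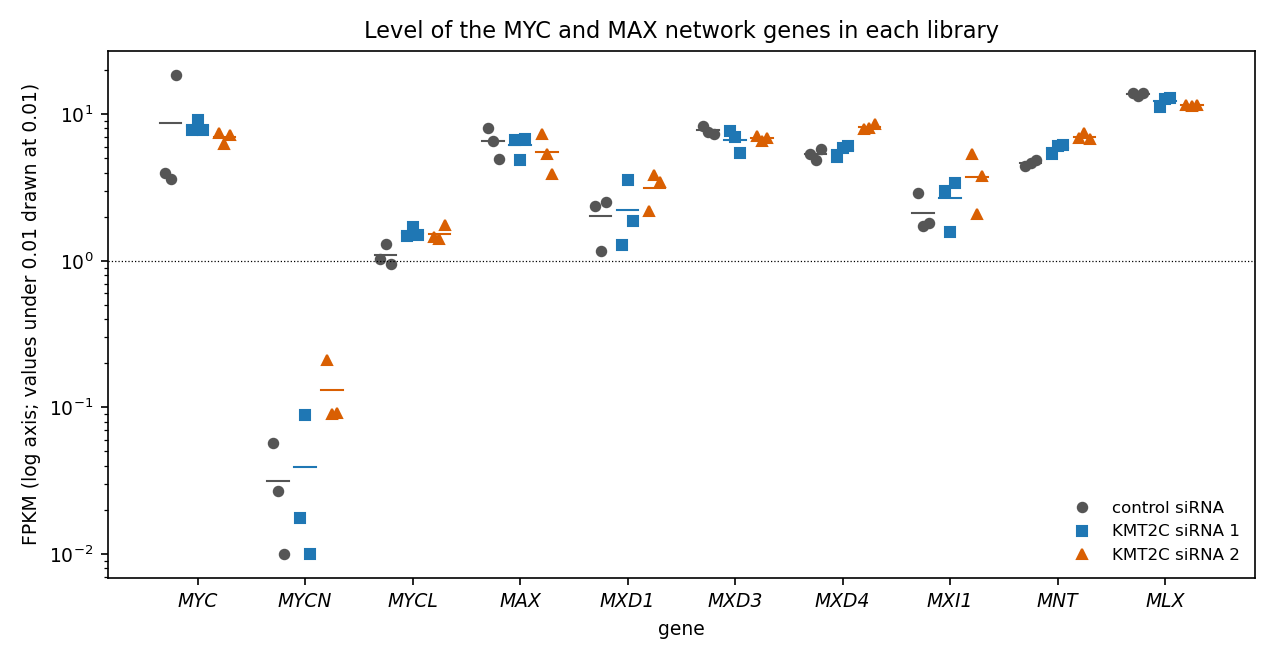
FPKM (log axis) of each network gene in each of the 9 libraries, with control as circles, siRNA 1 as squares, siRNA 2 as triangles and the group mean as a short line; the dotted line is 1 FPKM and values under 0.01 are drawn at 0.01. One control library carries MYC at 18.6 FPKM, above the other 8, and no MYCN point exceeds 0.212.

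MYC (ENSG00000136997, GRCh38 chromosome 8, 127735434 to 127741434, plus strand) was the tested member whose control libraries disagreed most. Its level was 3.98, 3.62 and 18.6 FPKM in control replicates 1, 2 and 3, from 1268, 1328 and 7166 counts. It was 7.79, 9.15 and 7.85 FPKM with siRNA 1, and 7.43, 6.27 and 7.18 with siRNA 2. The 6 knockdown libraries thus lay close together, above control replicates 1 and 2 and below control replicate 3. Against control, siRNA 1 gave a log2 fold change of -0.11 ± 0.56 (edgeR's quasi-likelihood test, adjusted p = 0.888) and siRNA 2 one of -0.39 ± 0.56 (adjusted p = 0.595), so no change was called.

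The sign of the MYC result rested on control replicate 3 and on the scale. It held 4.90 times the mean FPKM of the other control libraries. Without it, MYC was higher by 1.10 on the log2 scale with siRNA 1 (adjusted p = 4.86e-04) and by 0.82 with siRNA 2 (adjusted p = 9.31e-04), and both passed the test. On the log2(FPKM + 1) scale with all 9 libraries, limma gave 0.27 and 0.05, neither called (adjusted p = 0.685 and 0.941). Among the 12830 tested genes 25 (0.195%) had a highest control value at least 4.71 times the next one, the ratio found for MYC in depth-scaled counts (CPM). In that library 438 tested genes differed over 2-fold from the rest of its group, within the 418 to 509 seen across the 9 libraries. No exon of another annotated gene overlaps MYC.

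**Figure D3:**
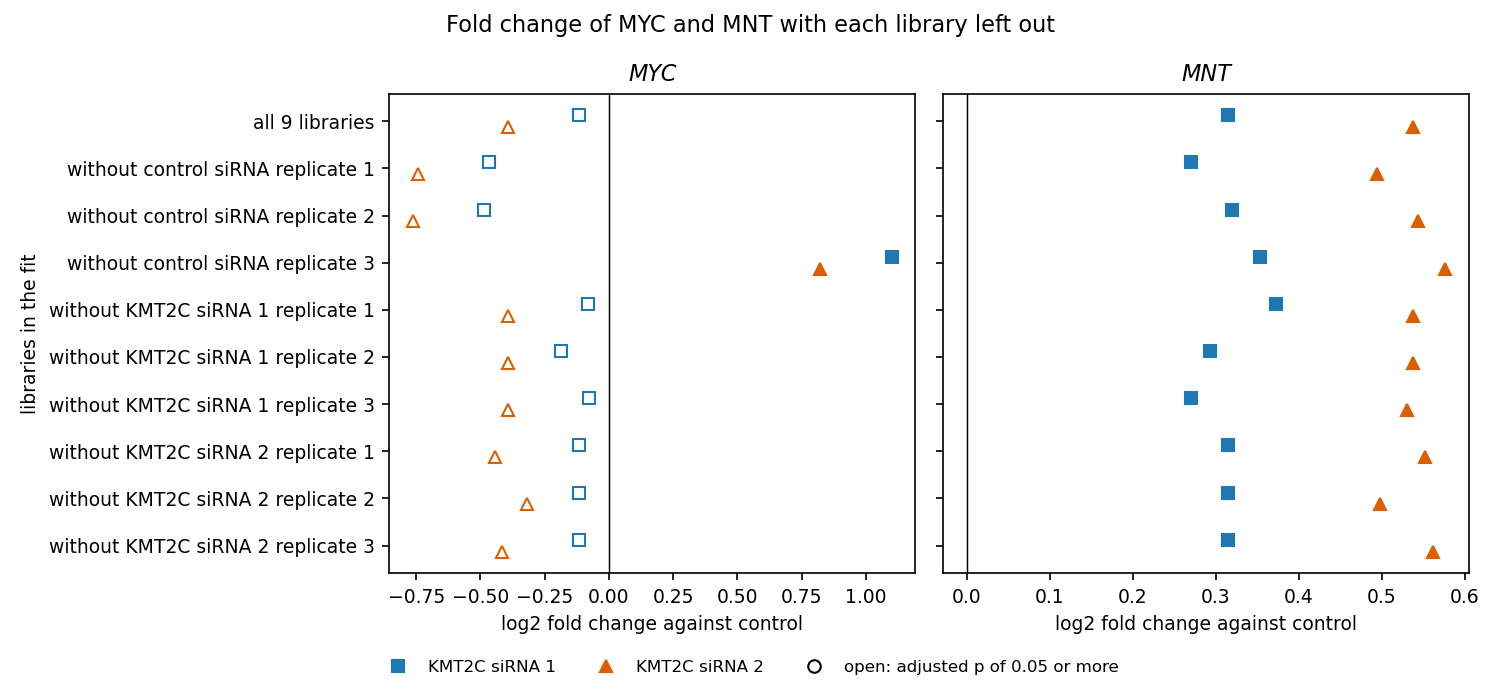
Log2 fold change against control (horizontal axis) of MYC and MNT when all 9 libraries are fitted and when each is left out in turn (rows), for siRNA 1 (squares) and siRNA 2 (triangles); filled symbols have an adjusted p under 0.05. MYC moves from -0.11 and -0.39 to 1.10 and 0.82 without control replicate 3, and MNT stays between 0.27 and 0.58.

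Neighbouring transcripts of MYC were scarce. PVT1, the long noncoding RNA gene next to MYC, was at 0.479, 0.428 and 0.414 FPKM in control, 0.807, 0.772 and 0.707 with siRNA 1, and 0.770, 0.832 and 0.728 with siRNA 2. Every knockdown library was above every control library for PVT1, and control replicate 3, the library with high MYC, was not high for it. CASC11, on the other side of MYC, was at 0.0697 FPKM in control (mean of 3), 0.208 with siRNA 1 and 0.161 with siRNA 2. Both genes were below the tested level, so these are levels without a test. The MYCN antisense RNA genes MYCNOS and MYCNUT were listed at 0 in all 9 libraries.

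The genes whose profile over the 9 libraries was most like that of MYC (Pearson's r of log2 CPM, n = 9 libraries that share their depth scaling) were LZTS2 (r = 0.874), TRAPPC3 (0.865), PELO (0.842), ACBD4 (0.832) and TCF19 (0.824). In each of these, control replicate 3 was above control replicates 1 and 2, a pattern that the choice by likeness to MYC favours. TCF19 was at 8.61, 8.17 and 17.5 FPKM in control, 18.4, 19.2 and 17.1 with siRNA 1, and 15.0, 14.4 and 14.2 with siRNA 2. For TCF19, control replicate 3 was thus at the level of the knockdown libraries, whereas for MYC it was above them.

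The other MYC family members were low. MYCL (chromosome 1, 39895426 to 39902256, minus strand), the relative first found in lung cancer, was at 1.03, 1.30 and 0.952 FPKM in control, 1.48, 1.69 and 1.498 with siRNA 1, and 1.45, 1.40 and 1.75 with siRNA 2. All 6 knockdown values were above the 3 control values. The rise was 1.40-fold with siRNA 1 (log2 fold change 0.48 ± 0.15, adjusted p = 0.0347) and 1.35-fold with siRNA 2 (0.43 ± 0.15, adjusted p = 0.0457). These calls stood at the edge of the threshold: 8 of 17 alternative fits did not call MYCL with siRNA 1, and 11 of 17 did not with siRNA 2, with adjusted p up to 0.105 and 0.151. The siRNA 1 call was lost without control replicate 1 (0.43) or 3 (0.40) or any siRNA 1 replicate (0.42 to 0.51), and the siRNA 2 call without any library except control replicate 2 (0.32 to 0.49).

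MYCN (chromosome 2, 15940550 to 15947007, plus strand), the relative known from neuroblastoma and neuroendocrine prostate cancer, had 11, 6 and 0 counts in control, 4, 19 and 0 with siRNA 1, and 43, 19 and 19 with siRNA 2. The siRNA 2 libraries, at 0.212, 0.0903 and 0.0914 FPKM, were above the control libraries. When all 33869 genes with a count were fitted, MYCN did not pass with siRNA 2 (log2 fold change 2.07 ± 1.41, adjusted p = 0.371) or with siRNA 1 (0.32 ± 1.40, adjusted p = 0.980). Over all genes the most frequent count above 0 in the deposited values was 4 (11286 values, against 6621 at 1 and 2524 at 5), and 8 also stood above its neighbours. More than 1 count thus appears to stand for 1 sequenced fragment, and the depth behind MYCN would be smaller than its counts. The same limit would apply to the other genes, MYCL among them, and the edgeR tests took all counts as deposited.

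MAX (chromosome 14, 65006174 to 65102695, minus strand), the partner of every MYC and MXD protein, was not called. It was at 8.04, 6.61 and 4.97 FPKM in control, 6.71, 4.90 and 6.75 with siRNA 1, and 7.28, 5.39 and 3.90 with siRNA 2, and the 3 groups overlapped. Fitted log2 fold changes of MAX were -0.12 ± 0.25 for siRNA 1 (adjusted p = 0.745) and -0.30 ± 0.25 for siRNA 2 (adjusted p = 0.360). The ratio of MYC to MAX in FPKM was 0.495, 0.548 and 3.74 in control, 1.16 to 1.87 with siRNA 1 and 1.02 to 1.84 with siRNA 2, and it repeats the pattern of MYC.

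MNT was the antagonist that rose with both siRNAs under every alternative run. MNT (ENSG00000070444, chromosome 17, 2384073 to 2401104, minus strand) encodes the broadly expressed repressor that competes with MYC for MAX. Its level was 4.44, 4.65 and 4.85 FPKM in control, 5.33, 6.12 and 6.21 with siRNA 1, and 6.85, 7.44 and 6.76 with siRNA 2. The groups did not overlap, and the order was control, siRNA 1, siRNA 2. MNT rose 1.24-fold with siRNA 1 (log2 fold change 0.31 ± 0.08, adjusted p = 0.0115) and 1.45-fold with siRNA 2 (0.54 ± 0.08, adjusted p = 5.27e-04). The siRNAs differed by -0.22 ± 0.08 (siRNA 1 minus siRNA 2, adjusted p = 0.0487), a call that 10 of 17 alternatives lost, among them the omission of any library except siRNA 1 replicate 3 (-0.25 to -0.17).

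MXD4 rose with siRNA 2 and was not called with siRNA 1. MXD4 (ENSG00000123933, chromosome 4, 2247432 to 2262109, minus strand) encodes an MXD repressor associated with differentiated, non-dividing cells. It was at 5.32, 4.86 and 5.80 FPKM in control, 5.14, 5.92 and 6.09 with siRNA 1, and 7.92, 8.01 and 8.54 with siRNA 2. The siRNA 1 libraries overlapped with control, and the siRNA 2 libraries were above all others. The rise with siRNA 2 was 1.47-fold (log2 fold change 0.56 ± 0.09, adjusted p = 9.32e-04), and with siRNA 1 the value was 0.07 ± 0.09 (adjusted p = 0.536). The difference between the siRNAs itself passed the test (-0.48 ± 0.09, adjusted p = 0.00292; 39.5% of all tested genes were called in that comparison, in which MXD4 and MNT were the 2 network genes called), and it did so under all 17 alternatives.

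The remaining MXD genes were not called. MXI1 (chromosome 10, 110207605 to 110287365, plus strand), also known as MXD2, was at 2.88, 1.72 and 1.80 FPKM in control, 3.01, 1.58 and 3.40 with siRNA 1, and 5.34, 2.10 and 3.81 with siRNA 2. Its log2 fold change was 0.30 ± 0.39 (adjusted p = 0.569) and 0.76 ± 0.39 (adjusted p = 0.138). Within siRNA 2 alone MXI1 spanned 2.10 to 5.34 FPKM, and without siRNA 2 replicate 2 it was called (1.05, adjusted p = 0.0431).

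MXD1 (chromosome 2, 69897688 to 69942942, plus strand), the MXD repressor known for its induction during differentiation, was at 2.37, 1.18 and 2.51 FPKM in control, 1.28, 3.54 and 1.86 with siRNA 1, and 2.19, 3.82 and 3.47 with siRNA 2. Its groups overlapped and its log2 fold change was 0.11 ± 0.41 (adjusted p = 0.851) and 0.59 ± 0.41 (adjusted p = 0.263). Exons of MXD1 and SNRNP27 overlap on 1 strand. MXD3 (chromosome 5, 177301461 to 177311895, minus strand), which is known to be expressed in dividing cells, was at 8.35, 7.63 and 7.38 FPKM in control, 7.68, 6.99 and 5.44 with siRNA 1, and 7.11, 6.60 and 6.92 with siRNA 2. Its log2 fold change was -0.24 ± 0.12 (adjusted p = 0.153) and -0.23 ± 0.12 (adjusted p = 0.150). MXD3 was called lower with siRNA 1 without siRNA 1 replicate 1 (-0.36, adjusted p = 0.0363), and with siRNA 2 without siRNA 1 replicate 3 (-0.24, adjusted p = 0.0366) or with only the 2 groups compared (-0.24, adjusted p = 0.0262). Exons of RAB24 on its own strand and PRELID1 on the other overlap MXD3, and whether the counting used strand is not given in the sources used here.

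Summed over MXD1, MXI1, MXD3, MXD4 and MNT, the antagonists came to a mean ± SD (n = 3) of 21.9 ± 1.70 FPKM in control, 23.2 ± 0.872 with siRNA 1 and 28.96 ± 0.860 with siRNA 2. The siRNA 2 libraries, at 28.0 to 29.5 FPKM, were above the highest control library at 23.4, while the siRNA 1 libraries, at 22.4 to 24.1, overlapped with control.

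MLX fell by a small amount. MLX (ENSG00000108788, chromosome 17, 42567068 to 42573239, plus strand) was at 14.0, 13.3 and 14.1 FPKM in control, 11.2, 12.7 and 12.9 with siRNA 1, and 11.5, 11.4 and 11.6 with siRNA 2, and both knockdown groups were below control. It fell by 0.20 ± 0.06 on the log2 scale for siRNA 1 (adjusted p = 0.0390) and by 0.32 ± 0.07 for siRNA 2 (adjusted p = 0.00369). The siRNA 2 call held in all 17 alternatives, and the siRNA 1 call was lost in 14 of 17, among them the omission of any library except siRNA 1 replicate 3 (-0.22 to -0.14). Its exons overlap those of PSMC3IP on the opposite strand. Exons of MYCN, MYCL, MAX, MXI1 and MNT also each overlap 1 other gene on the opposite strand. Those of MXD4 overlap MIR4800 on its own strand.

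The partners of MLX and MAX outside the 10 genes were also read. MLXIP was at 15.9, 15.1 and 17.0 FPKM in control, 14.1, 15.0 and 15.1 with siRNA 1, and 8.91, 9.19 and 8.61 with siRNA 2. It fell by 0.90 ± 0.06 on the log2 scale with siRNA 2 (adjusted p = 6.25e-06) and was not called with siRNA 1 (-0.15 ± 0.06, adjusted p = 0.0790), and the siRNAs differed by 0.76 ± 0.06 (adjusted p = 2.76e-05). MGA, a MAX partner that also carries a T-box domain, was not called against control (-0.10 ± 0.08 and 0.14 ± 0.08), except with siRNA 2 under upper quartile scaling (0.23, adjusted p = 0.0311). MLXIPL was below the tested level, at 0.793 to 0.875 FPKM in control, 0.727 to 0.769 with siRNA 1 and 0.986 to 1.26 with siRNA 2. Of 4 tested glucose-responsive targets of MLX dimers, 3 rose with siRNA 1 and 2 with siRNA 2, beside 21.2% and 24.4% of all tested genes. KLF10 rose with both (1.12 ± 0.08 with each), from 4.32 ± 0.167 FPKM in control.

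The members also differed in how tightly their libraries agreed. The SD of log2 CPM within groups was 0.78 for MYC, 0.60 for MXD1, 0.57 for MXI1 and 0.36 for MAX, beside a median of 0.16 over all tested genes. These values ranked at percentiles 95.9, 93.2, 92.6 and 83.4 of the tested genes. MLX (0.06), MNT (0.09) and MXD4 (0.11) ranked at percentiles 6.64, 17.7 and 27.4. The genes called with siRNA 2 other than MYCL were therefore those with the tightest replicates, and the members with wide replicates include those with the larger fitted folds. By log2 CPM, MYCL, MNT and MLX did not overlap between siRNA 1 and control, 3 of 9 against 53.0% of all tested genes, and MYCL, MXD3, MXD4, MNT and MLX did not between siRNA 2 and control, 5 of 9 against 62.1%.

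Promoter sequence was taken from RefSeq (GRCh38.p14) as windows of 300 bases around each start site and searched for CACGTG, which reads the same on both strands. Of the 10 genes 9 matched an entry, and MYC did not. The motif was found in 3 of 12 windows, 1 each for MXD4, MNT and MLX, in 7.26% of all windows and in 9.62% of the windows of tested genes. It lay 238 bases before the start site in MXD4, 193 in MNT and 50 in MLX. By gene that is 3 of 9, beside 1152 of 8926 tested genes with an entry. Those 3 genes are among the 4 called with siRNA 2, and MYCL, also called, had no match. A link between the motif and the calls was not tested. The upstream bases of the 3 genes are shown 5′ to 3′ along the gene, outside the annotated transcripts, with the motif in capitals. A match is a string of letters and no evidence of binding. The stretches lie at chr4:2262295-2262359 (minus strand), chr17:2401119-2401310 (minus strand) and chr17:42566850-42567067 (plus strand).
MXD4: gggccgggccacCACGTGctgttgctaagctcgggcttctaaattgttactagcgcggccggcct
MNT: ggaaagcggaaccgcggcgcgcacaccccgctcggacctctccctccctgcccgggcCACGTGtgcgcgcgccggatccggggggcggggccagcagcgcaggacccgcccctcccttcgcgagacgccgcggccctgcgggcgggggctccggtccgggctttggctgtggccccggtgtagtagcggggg
MLX: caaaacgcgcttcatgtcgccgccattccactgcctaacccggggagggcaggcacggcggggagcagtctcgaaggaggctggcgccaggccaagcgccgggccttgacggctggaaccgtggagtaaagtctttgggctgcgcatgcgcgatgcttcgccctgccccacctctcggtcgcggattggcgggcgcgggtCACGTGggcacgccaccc

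The network was then read beside ribosomal genes. Of the 84 tested cytosolic ribosomal protein genes, 63 rose and 0 fell with siRNA 1, with a median log2 fold change of 0.43. That is 75.0% higher, against 21.2% of all tested genes, of which 20.5% were lower. With siRNA 2, 24 were called higher and 2 lower, with a median of 0.15. The share higher was 28.6%, near the 24.4% of all tested genes, and the share lower was 2.38%, against 24.9%. Of the 84, 68 were positive with siRNA 2, beside 6635 of all 12830 tested genes. The 24 higher with siRNA 2 were all higher with siRNA 1 too. RPL11 rose by 1.20 ± 0.13 and 0.89 ± 0.13, and RPL17 by 0.78 ± 0.08 and 0.58 ± 0.08. RPL32 rose by 0.57 ± 0.07 and 0.80 ± 0.07, and RPL26L1, a paralog of RPL26 at a low level, by 1.07 ± 0.13 and 1.51 ± 0.13. Ribosomal protein genes have many processed pseudogenes, and the treatment of reads that fit both is not stated.

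The ribosomal protein list took 7.79%, 7.69% and 7.58% of all counts in control replicates 1, 2 and 3, 11.7%, 10.2% and 9.86% with siRNA 1, and 8.85%, 8.86% and 8.98% with siRNA 2. All 6 knockdown libraries were above control. An exact 2-sided permutation test gave p = 0.1 for each siRNA, the smallest that 3 against 3 allows. Both siRNAs together against control gave an exact permutation p of 0.0238 (0.0714 after Benjamini-Hochberg adjustment over the 3 comparisons). As a share of summed FPKM the difference fell from 2.05 to 1.81 percentage points with an exact permutation p of 0.0595, and that of siRNA 2 alone from 1.21 to 0.69. Mitochondrial genes took 10.6% ± 0.501 of counts in control, 9.02% ± 0.698 with siRNA 1 and 12.05% ± 0.119 with siRNA 2, and with them left out of the total the exact permutation p for both siRNAs was 0.0119 and the difference for siRNA 2 alone was 1.52 percentage points.

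MYC mRNA and the ribosomal share were set side by side for each library. Control replicates 1 and 2 had MYC at 3.98 and 3.62 FPKM and shares of 7.79% and 7.69%, the siRNA 2 libraries had MYC at 6.27 to 7.43 FPKM and shares of 8.85% to 8.98%, and the siRNA 1 libraries had MYC at 7.79 to 9.15 FPKM and shares of 9.86% to 11.7%. In these 8 libraries, which leave out control replicate 3 for its MYC value, the order of the groups was the same for both measures. Within the knockdown groups it was not. With siRNA 1, replicate 1 had the lowest MYC (7.79 FPKM) and the highest share (11.7%). With siRNA 2, replicate 1 had the highest MYC (7.43 FPKM) and the lowest share (8.85%). Control replicates 1 and 2 kept the order. Control replicate 3, with MYC at 18.6 FPKM, had the lowest ribosomal share of the 9 libraries (7.58%) and the lowest share of counts on the MYC-induced list (0.713%). Between the knockdown groups, MYC differed by 0.28 ± 0.56 (siRNA 1 minus siRNA 2, edgeR adjusted p = 0.733), though its FPKM ranges in them did not overlap. The fit shares its spread over all 3 groups, control replicate 3 included. Without that library the edgeR adjusted p was 0.0595, and with only the 2 groups compared 0.0825, so MYC was not called. In the same comparison 39 of the 84 ribosomal protein genes were higher and 2 lower with siRNA 1. These are 46.4% higher and 2.38% lower, against 20.6% and 18.9% of all tested genes.

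**Figure D4:**
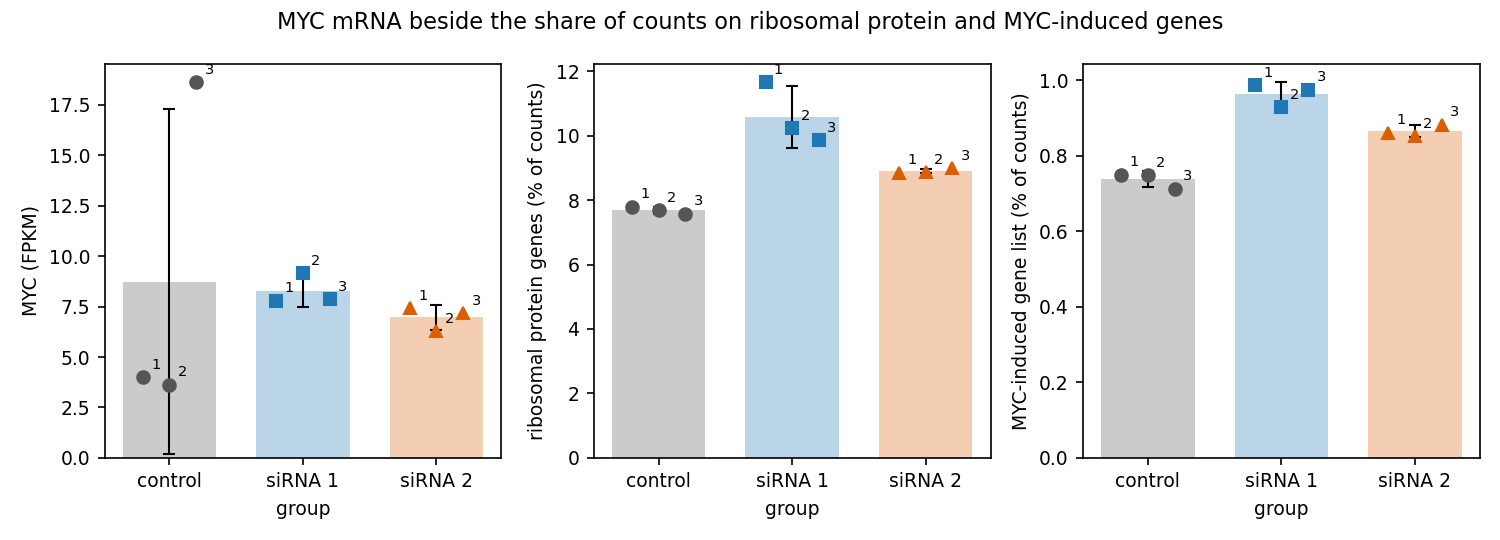
MYC level (FPKM), the share of counts on ribosomal protein genes and the share on the MYC-induced list (both % of counts), with bars for the group mean, error bars of 1 SD (n = 3) and numbered points for the replicates. Control replicate 3 is the highest point for MYC at 18.6 FPKM and the lowest for both shares, at 7.58% and 0.713%.

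A list of genes commonly given as MYC-induced, many of them nucleolar, was read in the same way. Of 65 tested, 31 rose and 1 (PLK1) fell with siRNA 1 (median 0.32), and 25 rose and 7 fell with siRNA 2 (median 0.18), with 22 higher with both. The shares higher were 47.7% and 38.5%, against 21.2% and 24.4% of all tested genes, and the shares lower 1.54% and 10.8%, against 20.5% and 24.9%. The list's share of counts was 0.738% ± 0.0212 in control, 0.964% ± 0.0307 with siRNA 1 and 0.865% ± 0.0154 with siRNA 2 (SD, n = 3), and no knockdown library overlapped with control. NOLC1, which encodes a nucleolar protein that chaperones small nucleolar RNA particles, was at 19.7, 19.6 and 19.5 FPKM in control, 81.8, 79.3 and 75.1 with siRNA 1, and 59.2, 57.4 and 56.8 with siRNA 2. TCOF1, the treacle gene, which acts in ribosomal DNA transcription, rose by 1.19 ± 0.05 and 1.24 ± 0.05, the ribosome assembly gene NOP16 by 0.85 ± 0.08 and 0.77 ± 0.08, and the tRNA synthetase scaffold gene AIMP2 by 0.74 ± 0.10 and 1.00 ± 0.10. The 7 that fell with siRNA 2 were UNG, MCM5, MCM4, GRWD1, DUSP2, GNL3 and PLK1, named here after their values were seen, and UNG was positive with siRNA 1 (0.75). In promoter windows CACGTG was found in 41.4% of entries for this list and in 5.88% of those for the ribosomal protein list.

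Of 21 tested genes of the RNA polymerase I machinery, which transcribes ribosomal RNA, 9 rose and 1 fell with siRNA 1, and 6 rose and 2 fell with siRNA 2. The share higher was 42.9% with siRNA 1, against 21.2% of all tested genes, and 28.6% with siRNA 2, near the 24.4% of all tested genes. The shares lower were 4.76% and 9.52%, against 20.5% and 24.9% of all tested genes. The polymerase subunit gene POLR1B rose by 0.69 ± 0.10 and 0.86 ± 0.10, the subunit gene CD3EAP by 1.16 ± 0.31 and 0.95 ± 0.31, the shared subunit gene POLR2E by 0.34 ± 0.07 and 0.36 ± 0.07, and the promoter factor gene TAF1D by 0.87 ± 0.08 and 0.64 ± 0.08. The CD3EAP call was lost without control replicate 3 with siRNA 1 (1.02), and in 6 of 17 alternatives with siRNA 2, among them without control replicate 1 (0.71) or 3 (0.81) or siRNA 2 replicate 1 (0.99) or 3 (0.81); without control replicate 2 the siRNA 2 value was 1.44. CD3EAP and TAF1D share exonic sequence with other genes, TAF1D with several small nucleolar RNAs.

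**Figure D5:**
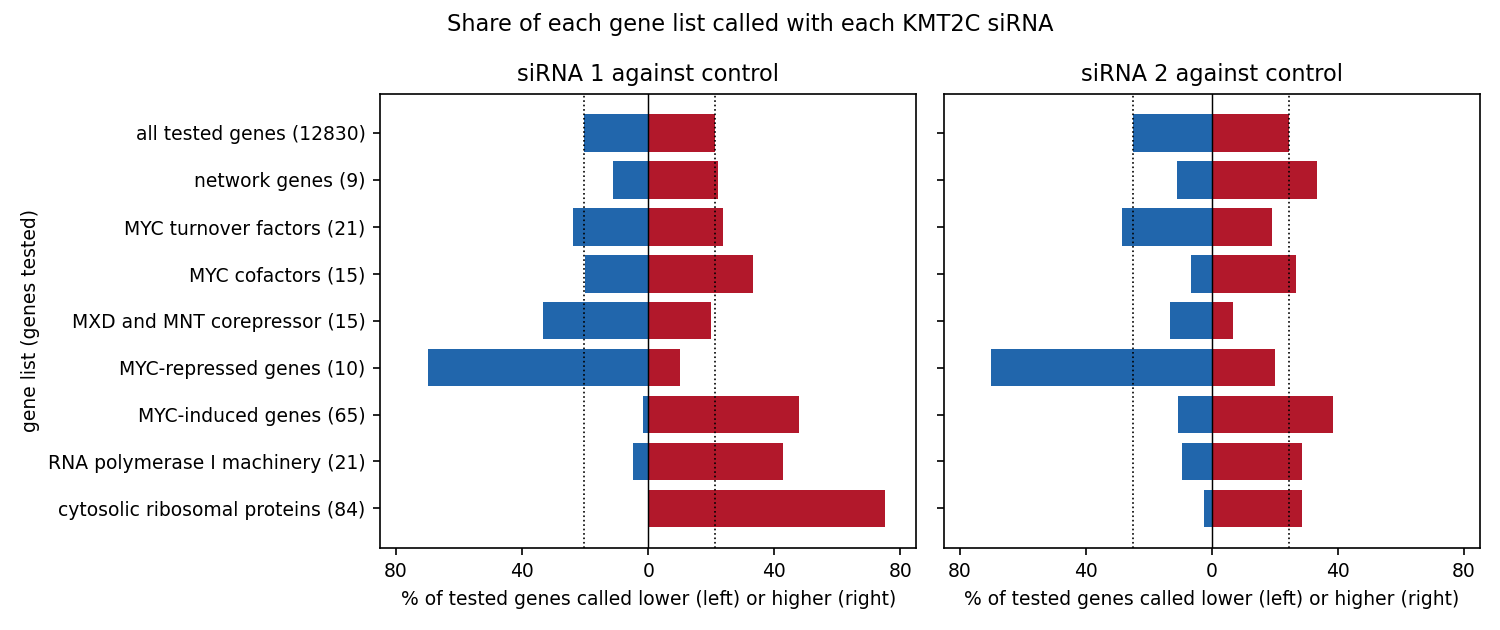
Share of the tested genes of each list called lower (bars to the left) or higher (bars to the right) with siRNA 1 and siRNA 2, with the number tested in brackets and dotted lines at the share over all tested genes. Ribosomal protein genes reach 75.0% higher with siRNA 1 and 28.6% with siRNA 2, and the network genes 22.2% and 33.3%.

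Genes commonly given as MYC-repressed fell more often than they rose. Of 10 tested, 7 fell and 1 rose with siRNA 1, and 7 fell and 2 rose with siRNA 2, while 20.5% and 24.9% of all tested genes fell. The 10 include CDKN1C, which reached the tested level only through the siRNA 2 libraries, where it was highest. A call of CDKN1C within these counts is therefore not read as a result. CLU, the secreted chaperone clusterin, was at 36.8 ± 1.75 FPKM in control, 12.4 ± 0.273 with siRNA 1 and 1.65 ± 0.178 with siRNA 2 (SD, n = 3). NDRG1, which is also an androgen-induced gene in prostate cells, fell by 0.89 ± 0.09 and 1.37 ± 0.09, the matrix protein gene THBS1 by 1.39 ± 0.15 and 1.12 ± 0.15, and the differentiation factor gene CEBPA by 0.87 ± 0.13 and 1.04 ± 0.13. The summed VCaP markers fell to 926 and 958 FPKM from 1816 in the same libraries, and the part of that shift in this list was not tested.

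Of 21 tested factors that act on the turnover of MYC protein, 5 rose and 5 fell with siRNA 1, and 4 rose and 6 fell with siRNA 2. These shares (23.8% each way, then 19.0% higher and 28.6% lower) are near those of all tested genes (21.2% and 20.5%, then 24.4% and 24.9%). PIM1, a kinase that stabilises MYC, was at 29.5, 28.3 and 27.3 FPKM in control, 16.0, 16.0 and 15.2 with siRNA 1, and 13.1, 13.4 and 12.1 with siRNA 2, and it fell by 0.87 ± 0.06 and 1.19 ± 0.06 on the log2 scale. The deubiquitinase gene USP28, which protects MYC from FBXW7, fell by 0.66 ± 0.15 and 0.93 ± 0.15. SKP2, a ubiquitin ligase that targets MYC, rose by 0.36 ± 0.11 and 0.38 ± 0.11. The SKP2 call was lost in 7 of 17 alternatives with siRNA 1, among them without control replicate 1 (0.32) or 3 (0.35) or siRNA 1 replicate 2 (0.31) or 3 (0.29), and in 5 of 17 with siRNA 2, among them without control replicate 1 (0.34) or 3 (0.37) or siRNA 2 replicate 1 (0.33) or 3 (0.38).

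Of 15 tested MYC cofactors, 5 rose and 3 fell with siRNA 1, and 4 rose and 1 fell with siRNA 2. The shares higher were 33.3% and 26.7%, against 21.2% and 24.4% of all tested genes, and the shares lower 20% and 6.67%, against 20.5% and 24.9%. The helicase genes RUVBL1 and RUVBL2, which act in the acetyltransferase complexes MYC recruits, rose by 0.61 ± 0.07 and 0.64 ± 0.07 with siRNA 1 and by 0.74 ± 0.07 and 0.83 ± 0.07 with siRNA 2. The elongation kinase gene CDK9 rose by 0.39 ± 0.08 and 0.37 ± 0.08.

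Of 15 tested genes of the SIN3 and histone deacetylase corepressor that MXD and MNT recruit, 3 rose and 5 fell with siRNA 1, and 1 rose and 2 fell with siRNA 2. The shares higher were 20% and 6.67%, against 21.2% and 24.4% of all tested genes, and the shares lower 33.3% and 13.3%, against 20.5% and 24.9%. SAP30 was the 1 gene of this list called in the same direction with both (25.9% of all tested genes were), at 4.22 ± 0.349 FPKM in control, 8.64 ± 0.850 with siRNA 1 and 8.98 ± 0.822 with siRNA 2 (SD, n = 3), a rise of 1.01 ± 0.13 and 1.03 ± 0.13 on the log2 scale.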

How the data were processed

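RNA sequencing of 9 VCaP libraries (3 per group) was read from 1 deposited table. Its expected counts are whole numbers that the authors deposited without normalization. The deposited FPKM values come from the authors too, and a gene with no count has 0.0001 there. The submitters' processing notes name Bowtie 0.12.2 and 2 builds, mm8 and hg38, and give none of them a role. The counting tool and annotation release were not given in the sources used here. The samples are labelled VCaP, although the series' design text speaks of retinal RNA. Start and end equal those of GENCODE release 29 for 72.7% of the 58394 identifiers found there, and coordinates are therefore on GRCh38.

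Genes with at least 1 FPKM in at least 3 libraries were tested on rounded counts (rounding changed no value) with edgeR 4.0.16 (R 4.3.3): TMM scaling, the quasi-likelihood F test, 1 mean per group over all 9 libraries, 2-sided, Benjamini-Hochberg adjustment over all tested genes at 0.05. SE is the log2 fold change over the square root of F. The share of counts on ribosomal protein genes was tested with an exact permutation test. The alternatives were RLE and upper quartile scaling, DESeq2 1.42.0, no filter, limma 3.58.1 on log2(FPKM + 1) and log2(FPKM + 0.1), only the 2 groups compared, the replicate number as a block, and leaving out each library. The fit was tested on simulated data for siRNA 1 against control with 12830 genes. Only 67, 67 and 66 genes were changed there, by a log2 size of 0.5, 1 and 2. Of these the fit recovered 11.9%, 61.2% and 93.9%. In the real data 41.7% of tested genes were called in that comparison, which makes the adjusted threshold less strict. These shares are therefore not the recovery in the real data.

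The network genes and gene lists were chosen with earlier results of these data known. Named genes were KMT2C, the 10 network genes, the partners MGA, MLXIP and MLXIPL, the RNAs next to MYC and MYCN, up to 4 genes per list called in the same direction with both siRNAs with the largest smaller change, and the 5 genes most like MYC. Some genes that this rule takes are not reported here. The VCaP markers and the 16 markers of other cell types were read as levels and counts.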

Additional observations from a re-analysis of the deposited data

Results flagged for a closer look

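For 11 named genes the effect of siRNA 1 differed from that of siRNA 2 in the direct test between both knockdown groups (edgeR's quasi-likelihood test, adjusted over all tested genes; values are log2, siRNA 1 minus siRNA 2). In the network these were MXD4 (-0.48, adjusted p = 0.00292) and MNT (-0.22, adjusted p = 0.0487). MXD4 was near 0 with siRNA 1 (0.07) and higher with siRNA 2 (0.56), and MNT was higher with both (0.31 and 0.54).

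Among the partners of the network, MLXIP differed by 0.76 (adjusted p = 2.76e-05) and MGA by -0.23 (adjusted p = 0.0409). The MGA call was lost in 10 of 17 alternatives (adjusted p up to 0.175), among them the omission of any library except control replicate 3 and siRNA 1 replicate 3 (-0.26 to -0.16). MLXIP was at -0.15 with siRNA 1 and -0.90 with siRNA 2. The kinase gene PIM1 differed by 0.32 (adjusted p = 0.00335), having fallen further with siRNA 2.

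CLU had the largest of these differences at 2.93 (adjusted p = 7.78e-07), and NDRG1 differed by 0.49 (adjusted p = 0.00227); both fell further with siRNA 2. NOLC1 differed by 0.48 (adjusted p = 1.90e-04) and TAF1D by 0.24 (adjusted p = 0.0433), both higher with siRNA 1. The TAF1D call was lost in 13 of 17 alternatives (adjusted p up to 0.134), among them the omission of any library except control replicate 2 and siRNA 1 replicate 2 (0.17 to 0.27). RPL26L1 (-0.44, adjusted p = 0.0266) and RPL32 (-0.23, adjusted p = 0.0378) were higher with siRNA 2, while 39 of the 84 tested ribosomal protein genes were higher with siRNA 1. The RPL26L1 call was lost in 4 of 17 alternatives, among them without siRNA 1 replicate 2 (-0.42) or 3 (-0.43) or siRNA 2 replicate 3 (-0.34). The RPL32 call was lost in 7 of 17 (adjusted p up to 0.159), among them without control replicate 1 (-0.23) or 2 (-0.23), siRNA 1 replicate 1 (-0.23) or 3 (-0.18), or siRNA 2 replicate 2 (-0.16). The difference of KMT2C between the siRNAs was 0.17 ± 0.12 and did not pass the test (adjusted p = 0.309).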

How the results depend on the processing

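The calls of MNT with each siRNA, of MXD4 with siRNA 2 and of MLX with siRNA 2 held in all 17 alternative fits. MNT ranged from 0.27 to 0.37 with siRNA 1 and from 0.49 to 0.64 with siRNA 2, and MXD4 from 0.50 to 0.66 with siRNA 2. The number of network genes called with siRNA 1, 3 in the design as reported, was 1 without the filter, 1 with only the 2 groups compared and 1 with the replicate block, and 1 to 2 when a library was left out. Between the siRNAs it was 2, and 1 without the filter, 1 with only the 2 groups and 1 to 2 when a library was left out. Ribosomal protein genes higher with siRNA 1 than with siRNA 2 numbered 39, and 24 to 45 when a library was left out. The ribosomal share for both siRNAs against control, 2.05 percentage points, was 1.81 as a share of summed FPKM and 1.67 to 2.23 when a library was left out, with an exact permutation p over 0.05 in 4 of the 9 cases.

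Direction turned for MYC on the limma scales (0.27 with siRNA 1 and 0.050 with siRNA 2 at a pseudocount of 1, 0.34 and 0.10 at 0.1), and with a library left out MYC ranged from -0.48 to 1.10 and from -0.76 to 0.82. Leaving out a library also turned uncalled values: with siRNA 1, MAX ranged from -0.27 to 0.045 and MXD1 from -0.38 to 0.38, and between the siRNAs MYCL ranged from -0.013 to 0.16, MAX from -0.015 to 0.43 and MXD3 from -0.13 to 0.13. Without the filter MXD3 was 0.036 between the siRNAs. The cause was not tested.

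The labels number the replicates 1 to 3 in each group, but same-numbered libraries did not deviate together (r from -0.07 to 0.04 across genes), and 0 of 9 libraries correlated best with its own number. No pairing by number was thus seen, but whether same-numbered libraries shared a culture or batch is not stated. With the replicate block MYC was 0.22 with siRNA 1 (adjusted p = 0.775), MYCL (adjusted p = 0.0548 and 0.0662) and MLX with siRNA 1 (0.0544) were not called, and MXI1 was called with siRNA 2 (0.68, adjusted p = 0.0383). Depth limits MYCN, which had 0 to 43 counts per library.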

Other observations

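MAX and MXI1, which are on different chromosomes, were highest in the same library of each group: control replicate 1 (MAX 8.04 and MXI1 2.88 FPKM), siRNA 1 replicate 3 (6.75 and 3.40) and siRNA 2 replicate 1 (7.28 and 5.34). MXD1 was high where they were low with siRNA 1 (3.54 FPKM in replicate 2, with MAX at 4.90 and MXI1 at 1.58). With siRNA 2, MXD1 was lowest in replicate 1 (2.19 FPKM), where MAX and MXI1 were highest. In control this was not so: MXD1 was at 2.37 FPKM in replicate 1, where both were highest, and lowest in replicate 2 (1.18), where MXI1 was lowest too. These values were noticed in the data and no test was made of them.

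Cyclin-dependent kinase inhibitor genes on the MYC-repressed list, named after their values were seen, did not move together. CDKN1B fell with both siRNAs (by 0.56 ± 0.07 and 0.67 ± 0.07), and CDKN1A fell with siRNA 2 (by 1.99 ± 0.17) and was not called with siRNA 1 (-0.39 ± 0.16, adjusted p = 0.0869). CDKN1C was at 0.193 to 0.328 FPKM with siRNA 1, below control (0.867 to 1.09), and at 1.41 to 1.81 with siRNA 2, above it. It reached the tested level only through the siRNA 2 libraries, so its levels are given without a test. GADD45A, on the same list, rose with both (0.77 ± 0.16 and 0.94 ± 0.16).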
